A study of Bos taurus with 21 samples.

Results

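Interleukins are the secreted messengers of white blood cells, and each acts on cells that carry a matching receptor, usually built from several chains. The genes described here are all those in the count tables whose symbol starts with IL and a digit, without the chemokine IL8. There were 55 of them among 13570 gene rows, 53 had a count in at least 1 cow, and 24 had at least 10 counts in every cow and are named throughout. Of these 24, 15 encode receptor chains and 9 encode ligands or the natural antagonist of interleukin-1. RNA was sequenced from the somatic cells of milk, which are the white blood cells and shed mammary epithelial cells that a cow releases with her milk. The 21 cows were Holstein, and the labels put 9 in a high milk yielding group (HY) and 12 in a low milk yielding group (LY). Parity was 2 to 4. The HY cows had been in milk for 41 to 268 days (median 168) and the LY cows for 52 to 270 days (median 211.5). Each library is 1 cow, no agent was given to either group, and no cell type was sorted, so each value is an average over whatever cells the milk held.

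In the udder, interleukin-1, made by macrophages and neutrophils among other cells, is among the first signals after bacteria enter, and it is held in check by a secreted antagonist (IL1RN) and by a decoy receptor (IL1R2). Several lymphocyte interleukins share 1 receptor chain, the common gamma chain (IL2RG), which pairs with the chains for IL2, IL4, IL7, IL15 and IL21. Interleukin-10 has the opposite task to interleukin-1 and dampens macrophages and neutrophils through IL10RA and IL10RB. Receptors of the first kind signal through the adaptor MYD88 to NF-kB, and the others through JAK kinases and STAT factors.

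The libraries held 7878557 to 28541904 counts on genes, and the interleukin and receptor genes took 0.138% to 4.09% of them. Levels are given as CPM, the counts of a gene scaled to a common library size, after TMM normalization, which sets the library sizes from the bulk of the genes. HY cow 3262 and HY cow 3280 stood apart, with 60.4% and 56.4% of their counts on milk protein genes, and counts or values without them are given for part of the results. No 2 libraries agreed within counting noise, since chi-square per degree of freedom was 40 or more for all of them. In such bulk samples, fewer cells of a type and less RNA per cell cannot be told apart.

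The interleukin-1 genes held most of the counts of these 24 genes and differed widely between cows. IL1RN, the antagonist, had a lowest value of 984.2 CPM, a median of 3322 CPM and a highest value of 23280 CPM over the 21 cows. IL1B, the main secreted form of interleukin-1, had 126.4, 722.2 and 12820 CPM. The highest cow was LY cow 7643 for both genes, followed by HY cow 3014 with 18800 CPM of IL1RN and 3908 CPM of IL1B, and the lowest was HY cow 3064 for both. Both genes together took 42.7% to 87.3% of the counts of all interleukin and receptor genes, with a median of 69.9%. Counts grow with transcript length, which was not used here, so levels are compared between cows and not between genes. IL1A, the form of interleukin-1 that stays largely with the cell, ran from 14.21 CPM in HY cow 3262 over a median of 63.41 CPM to 1404 CPM in LY cow 7643. The next cow had 308.9 CPM of IL1A, so LY cow 7643 stood alone at the top.

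The receptors of interleukin-1 divided into wide and narrow ones. IL1R2, the decoy receptor, had 14.91 CPM at the lowest, 92.83 CPM at the median and 611.2 CPM at the highest, in HY cow 3014. IL1RAP, the accessory chain that the signalling receptor needs, had 14.46, 64.17 and 329 CPM. IL1R1, the signalling receptor itself, had 28.68, 59.12 and 95.9 CPM, a 3.34-fold range, against a 41-fold range for IL1R2. IL18, a relative of interleukin-1 that drives interferon gamma, had 6.643 CPM at the lowest, in LY cow 7643, 21.48 CPM at the median and 65.34 CPM at the highest, in LY cow 3161.

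The common gamma chain IL2RG had 115.1 CPM at the lowest, 446.8 CPM at the median and 1815 CPM at the highest. IL2RA, the chain that raises the affinity for interleukin-2, had 6.875, 40.85 and 158.5 CPM. IL4R, which serves interleukin-4 and interleukin-13, had 41.25, 114.6 and 303.1 CPM. HY cow 3280 was lowest for these 3 genes, and HY cow 3014 was highest for IL2RG and LY cow 7643 for the others. IL7R, a receptor chain of resting T cells, had the widest range after the interleukin-1 ligands, from 4.695 CPM in LY cow 2893 over a median of 92.74 CPM to 253.4 CPM in HY cow 3064, or 54-fold. IL21R, the receptor of a helper T cell cytokine, had 3.793, 13.06 and 51.13 CPM. IL13RA1, the partner of IL4R for interleukin-13, was narrow, with 226.8, 320.7 and 870.5 CPM. IL15, a growth factor of memory and natural killer cells, had 1.021, 7.956 and 27.36 CPM.

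In the interleukin-10 family, IL10 had a lowest value of 4.714 CPM, a median of 19.82 CPM and a highest value of 89.22 CPM. Its ligand-binding chain IL10RA had 6.875, 80.78 and 222.7 CPM, and the shared second chain IL10RB had 60.4, 169.8 and 553 CPM. HY cow 3280 was lowest for IL10 and IL10RA, HY cow 3262 was lowest for IL10RB, and the highest cow was HY cow 2920 for IL10 and HY cow 3014 for both receptor chains. IL20RB, a receptor chain for interleukin-20 and its relatives best known from epithelia, had 1.617, 4.849 and 23.82 CPM. Among the relatives of interleukin-6 and interleukin-12, IL6R had 5.304, 69.34 and 165.2 CPM, IL11RA had 2.013, 5.768 and 20.93 CPM, and IL27RA had 2.977, 29.46 and 63.72 CPM. The ligand chain IL27 had 9.952, 17.18 and 53.06 CPM. IL23A, the chain that makes interleukin-23, had 1.75 CPM at the lowest, 6.211 CPM at the median and 91.35 CPM in LY cow 7643, with 18.09 CPM in the next cow. IL16, a chemoattractant precursor of T cells, had 4.518, 17.06 and 53.56 CPM, and LY cow 3264 was the highest.

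**Figure D1:**
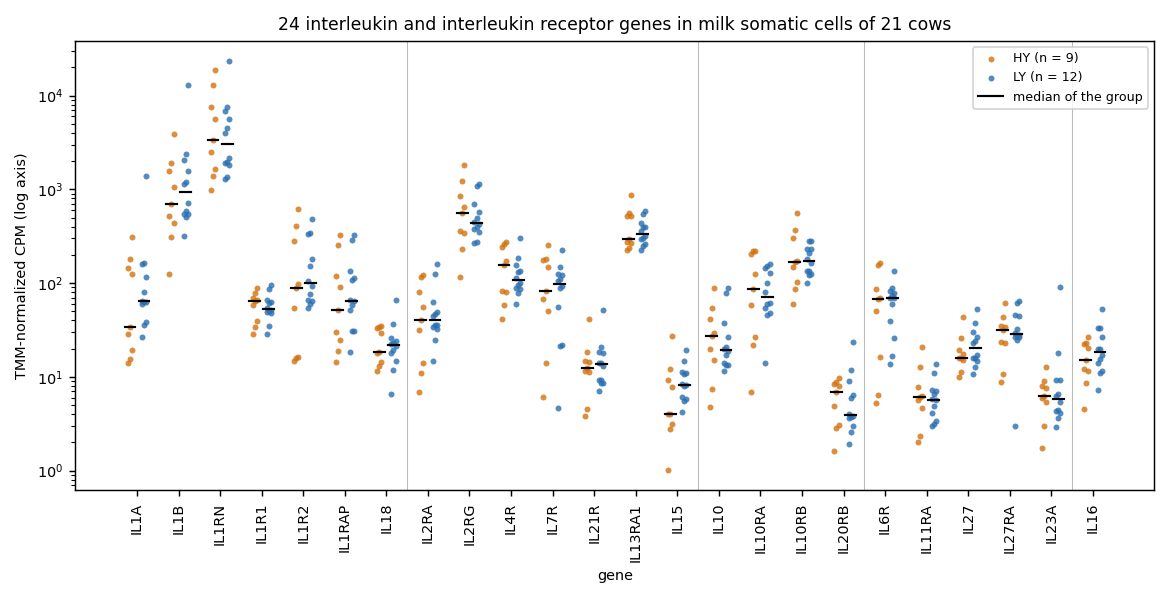
TMM-normalized CPM on a log axis for each of the 24 genes, with 1 point per cow (orange HY, n = 9, blue LY, n = 12) and a bar at each group's median. The HY and LY points overlap for all 24 genes, and the single LY point far above the rest for IL1A, IL1B and IL23A is LY cow 7643, with 1404, 12820 and 91.35 CPM.

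The genes varied more between cows than most genes of the same libraries. The median SD of log2(CPM + 0.25) over cows was 0.999 for the 24 genes and 0.613 for the 7146 genes that reached 10 counts in every cow, and 91.7% of the 24 lay above the median of the 7146. The largest SDs were those of IL7R at 1.62, IL1A and IL1R2 at 1.58 each and IL1B at 1.45, and the smallest were those of IL1R1 at 0.502 and IL13RA1 at 0.541. The genes also varied together. Of the 276 pairs of the 24 genes, 225, or 81.5%, had a positive Pearson r across cows, with a median r of 0.418, while 50.2% of the pairs of all 7146 genes were positive, with a median r of 0.00295. The highest r was 0.916, between IL2RA and IL2RG, and the lowest was -0.868, between IL11RA and IL6R. These are descriptions over 21 libraries that share a scaling, and no test was made of them. LY cow 7643 was the highest cow for 8 of the 24 genes, which were IL1A, IL1B, IL1RN, IL2RA, IL4R, IL21R, IL23A and IL27. HY cow 3014 was the highest for 6, which were IL1R2, IL2RG, IL10RA, IL10RB, IL13RA1 and IL15. HY cow 3280 was lowest for 7 and HY cow 3262 for 5.

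**Figure D2:**
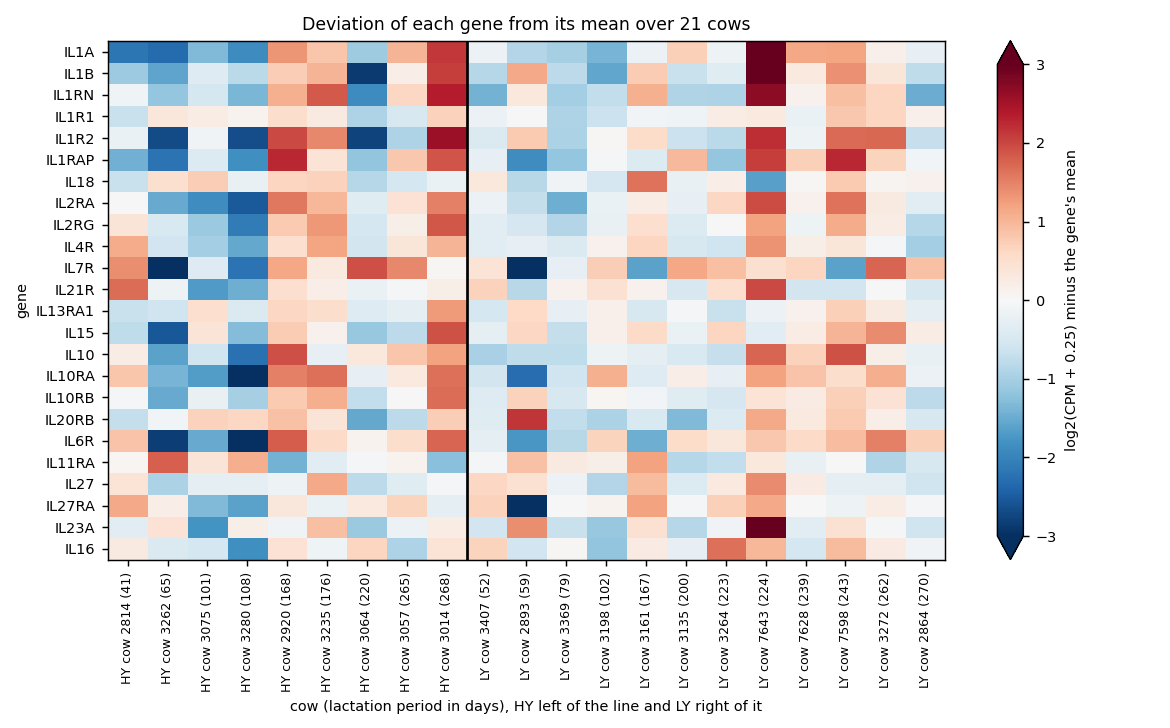
Deviation of each gene's log2(CPM + 0.25) from its mean over the 21 cows (red above, blue below, colour limited at 3 units), with HY left and LY right of the line and cows ordered by lactation period within each group. LY cow 7643 and HY cow 3014 are red for most interleukin-1 and receptor genes, HY cow 3262 and HY cow 3280 are blue for most, and IL11RA is red in those last cows.

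The other 31 genes fell under 10 counts in at least 1 cow. IL3 and IL5, growth factors of the bone marrow and of eosinophils, had no count in any cow. The helper T cell ligands were sparse, with at most 5 counts of IL2, 31 of IL4, 13 of IL13, 55 of IL17A, 72 of IL17F, 7 of IL21, 4 of IL22 and 30 of IL26 in any cow. LY cow 3264 was the highest cow for IL2, IL4, IL13, IL17A, IL12A, IL12RB2 and IL1RL1, the receptor of IL33, and it also had the highest T cell score described below. LY cow 7643 was the highest for IL6 with 21.01 CPM, for IL12B with 33.35 CPM and for IL17F, IL17RC and IL22. IL33, an alarm signal kept in epithelial nuclei, reached 61.29 CPM in HY cow 3280, which was also the highest for the epithelial receptor chain IL20RA with 11.39 CPM and for IL34. IL7, IL12B and IL23R had a count in every cow but under 10 in some. The others were IL1F10, IL1RL2, IL13RA2, IL17B, IL17RB, IL17RD, IL22RA1, IL28RA (the interferon lambda receptor), IL31RA and IL36RN, and none of them passed 102 counts in any cow.

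The comparison of HY with LY asks whether any of these genes differ with milk yielding ability. None of the 24 genes passed the test. By edgeR's quasi-likelihood test with Benjamini-Hochberg adjustment over 12333 genes, 0 of 24 were called, and the share called among all genes was also 0%. At an unadjusted p under 0.05, again 0 of 24 were called, against 4.7% of all genes. DESeq2 called 0 of 24 under either rule. The HY and LY ranges overlapped for all 24 genes, and the HY median was above the LY median for 11. Neither was counted over all genes, so both are descriptions. The lowest unadjusted p was that of IL23A, at -1.06 as log2 of HY over LY (p = 0.0768, adjusted p = 0.999). IL23A ran from 1.75 to 12.89 CPM in HY, with a median of 6.211 CPM, and from 2.936 to 91.35 CPM in LY, with a median of 5.816 CPM. Without LY cow 7643 the log2 fold change of IL23A was -0.02. IL1A followed with -0.97 (p = 0.19, adjusted p = 0.999), with HY from 14.21 to 308.9 CPM and a median of 33.77 CPM, and LY from 26.8 to 1404 CPM and a median of 63.78 CPM. The IL1A value also rests on LY cow 7643, since without it the log2 fold change was 0.33. IL16 had -0.45 (p = 0.19, adjusted p = 0.999), with means of log2(CPM + 0.25) of 3.85 ± 0.80 (SD) in HY and 4.27 ± 0.79 in LY. The median log2 fold change was -0.01 over the 24 genes and 0.08 over all genes that reached 10 counts in every cow. Of the 30 interleukin signalling genes that reached 10 counts in every cow, 0 were called after adjustment, and 2 were at an unadjusted p under 0.05. These were CISH, a STAT5-induced inhibitor, with -1.59 (p = 0.0207), and STAT4, the factor that interleukin-12 activates, with -0.93 (p = 0.00767), each with an adjusted p of 0.999.

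The breeding values for milk yield, fat, protein and solid, which carry no unit in the labels, also gave no call by linear regression on log2(CPM + 0.25). No gene of all 12333 was called for any of these values (0% each), and 0 of 24 had an unadjusted p under 0.05 for milk yield, fat, protein or solid, against 2.49%, 2.3%, 2.3% and 1.65% of all genes. For milk yield the 3 lowest p belonged to IL10 (r = 0.265, permutation p = 0.245, Spearman rho = 0.426, permutation p = 0.0551), IL27 (r = -0.224, p = 0.329, rho = -0.179, p = 0.436) and IL7R (r = 0.208, p = 0.366, rho = 0.275, p = 0.228). These r became 0.217, -0.183 and 0.12 without the 2 cows farthest from the median yield, and 0.203, -0.13 and 0.26 within the 16 cows of lower mapping rate, a technical set described with the processing. For milk fat they belonged to IL20RB (r = 0.28, p = 0.216, rho = 0.304, p = 0.18), IL15 (r = -0.239, p = 0.297, rho = -0.216, p = 0.344) and IL1RN (r = 0.155, p = 0.499, rho = 0.168, p = 0.465). They became 0.182, -0.44 and -0.0203 without the 2 farthest cows and, within the 16 cows, 0.192, -0.424 and -0.0202, so the sign of IL1RN turned. For milk protein they belonged to IL10 (r = 0.238, p = 0.3, rho = 0.379, p = 0.0901), IL27 (r = -0.214, p = 0.352, rho = -0.192, p = 0.403) and IL1RN (r = 0.195, p = 0.394, rho = 0.196, p = 0.392). Leaving out the 2 farthest cows gave 0.161, -0.00709 and 0.322, and the 16 cows alone gave 0.161, -0.119 and 0.133. For milk solid they belonged to IL27 (r = -0.32, p = 0.16, rho = -0.343, p = 0.128), IL21R (r = -0.277, p = 0.223, rho = -0.299, p = 0.186) and IL1RAP (r = 0.215, p = 0.348, rho = 0.232, p = 0.311). Here the 2 farthest cows left out gave -0.189, -0.306 and 0.31, and the 16 cows alone gave -0.263, -0.255 and 0.216. With milk yield, IL10 had r = 0.383 within HY and 0.706 within LY, IL27 had -0.362 and 0.0109, and IL7R had 0.581 and 0.284. Other genes with a high r within LY were IL10RA at 0.72, IL2RA at 0.702 and IL2RG at 0.636, against 0.053, 0.183 and -0.091 within HY. Over the 24 genes the median r was -0.0799 within HY and 0.409 within LY, where 23 were positive, and over all genes at the count minimum it was -0.0132 and 0.0164. These within-group r are descriptions, and 0 of 24 genes were called by linear regression for a difference of slope between the groups (lowest adjusted p = 0.985), with 1 of 24 at an unadjusted p under 0.05 against 4.01% of all genes. Milk yield and lactation period moved together within HY (r = 0.664) and within LY (r = 0.788), and the part of lactation period in these values was not tested. Every adjusted p of the genes in the 21 cows was 1. The values are not independent of each other, since milk yield correlated with milk protein at r = 0.967, with milk solid at 0.894 and with milk fat at 0.721. IL10 passed an unadjusted p of 0.05 when the 2 milk protein-rich cows were left out, with p = 0.0168 for yield, 0.0254 for protein and 0.041 for solid.

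Lactation period stood out from the other labels. No gene of the 12333 was called after adjustment (0%), and 0 of the 24 were, the lowest adjusted p among all genes being 0.125. At an unadjusted p under 0.05, 9 of 24 genes were counted, or 37.5%, against 20.3% of all genes. Of these, 8 had a positive r, against 10.5% of all genes, and 1 had a negative r, against 9.88%. The median r over the 24 genes was 0.343, with 19 positive, while it was -0.0196 over all genes that reached 10 counts in every cow. The 3 lowest p were those of IL1A, IL1RAP and IL6R, so that both an interleukin-1 ligand and the accessory chain of its receptor were among them.

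IL1A had r = 0.659 with lactation period (permutation p = 0.00081) and rho = 0.658 (permutation p = 0.00154), with an adjusted regression p of 0.125. Without the 2 cows farthest from the median lactation period its r was 0.647, and within the 16 cows of lower mapping rate it was 0.805. IL1RAP had r = 0.641 (permutation p = 0.00236) and rho = 0.639 (permutation p = 0.00241), with an adjusted p of 0.125, and r was 0.64 without the 2 farthest cows and 0.708 within the 16. IL6R, the ligand-binding chain for interleukin-6, had r = 0.603 (permutation p = 0.0035) and rho = 0.535 (permutation p = 0.0139), with an adjusted p of 0.126, and r was 0.748 and 0.61 in those subsets. IL10 had r = 0.58, IL2RA 0.579, IL10RA 0.504, IL7R 0.46 and IL15 0.456, with adjusted p of 0.129, 0.129, 0.172, 0.213 and 0.216. IL11RA, a receptor chain best known from stromal cells, went the other way with r = -0.56 and an adjusted p of 0.133. The r of IL1A was 0.825 within HY and 0.508 within LY, and no gene was called for a difference of the slope between HY and LY. Among the 30 signalling genes 9, or 30%, were at an unadjusted p under 0.05, all with a positive r, against 20.3% of all genes and 10.5% with a positive r. Among them were TRAF6, the ligase after the interleukin-1 receptor, at 0.657, CSF2RB, the shared receptor chain for interleukin-3, interleukin-5 and GM-CSF, at 0.579, OSM at 0.545, NFKBIZ at 0.545, NLRP3 at 0.538, STAT4 at 0.487, IRAK4 at 0.455 and STAT6 at 0.436. The lowest adjusted p among them was also 0.125. The cell type scores below did not pass with lactation period, the nearest being the T cell score (r = 0.379, permutation p = 0.0895, adjusted over 35 relations 0.904). The fits were also repeated under 11 alternatives, among them the neutrophil, macrophage, T cell and mammary epithelial scores as covariates. In these, the unadjusted p of the slope was at most 0.0292 for IL1A, 0.0224 for IL1RAP and 0.039 for IL6R, each with its sign kept. A cause of these values was not tested.

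**Figure D3:**
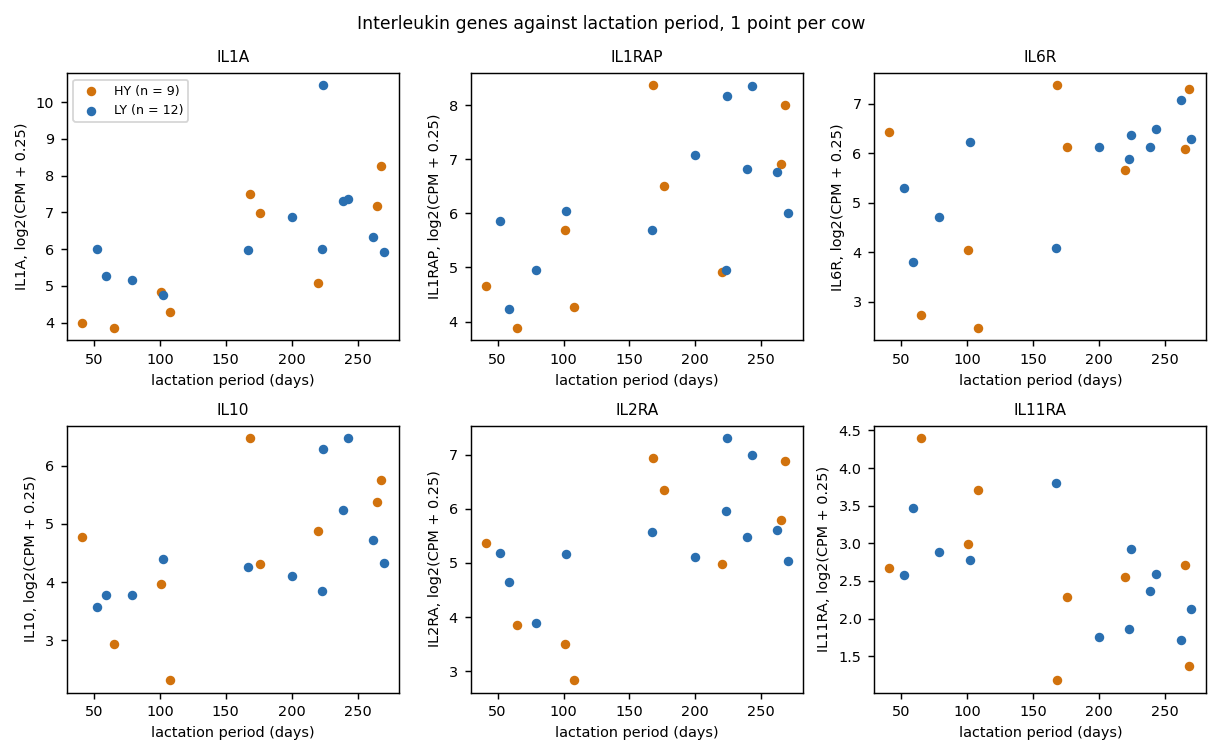
log2(CPM + 0.25) of 6 genes against lactation period in days, 1 point per cow (orange HY, n = 9, blue LY, n = 12). IL1A, IL1RAP, IL6R, IL10 and IL2RA lie higher in cows later in lactation, with r from 0.579 to 0.659, and IL11RA lies lower, with r = -0.56, and none of the 6 passed adjustment over all genes.

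Relations with markers of cell types passed the test where those with the labels had not. A score per cow was the mean log2(CPM + 0.25) of a list of markers with at least 10 counts in every cow, and it was regressed on all 12333 genes. No interleukin gene was in a list, but the markers themselves are among the 12333. Over 7 scores, 40 of the relations with the 24 genes were called at an adjusted p under 0.05, and 20 of the 24 genes were called with at least 1 score. Of all 12333 genes, 3.34% (T cell score) to 21.1% (milk protein score) were called per score. The share of all genes called with at least 1 score was not computed, so the count of 20 is a description. IL11RA, IL13RA1, IL18 and IL23A were called with none. The scores are themselves related, since the neutrophil and dendritic cell scores had r = 0.742 with each other, the T cell and cytotoxic lymphocyte scores 0.691 and the mammary epithelial and milk protein scores 0.904. A permutation p of 1e-05 is the smallest that the 100000 permutations can give.

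With the neutrophil score, which rested on 8 markers including S100A8, S100A9 and CXCR2, 9 of 24 genes were called, all with a positive r, against 6.88% of all genes in either direction and 5.15% with a positive r. CXCR1 was at 0 in all cows. The largest r was that of IL2RG at 0.889 (permutation p = 1e-05, rho = 0.861, permutation p = 1e-05, adjusted p = 3.35e-05). IL10RB had r = 0.804 (permutation p = 2e-05, rho = 0.816, permutation p = 1e-05, adjusted p = 0.00121), and IL1RN had r = 0.799 (permutation p = 2e-05, rho = 0.852, permutation p = 2e-05, adjusted p = 0.00131). These r were 0.796, 0.708 and 0.762 without the 2 cows of farthest score, and within the 16 cows of lower mapping rate 0.926, 0.84 and 0.901. The other 6 were IL1R2 at 0.793, IL4R at 0.778, IL2RA at 0.77, IL1B at 0.687, IL15 at 0.623 and IL10 at 0.613. The list thus held the interleukin-1 decoy receptor and antagonist together with the ligand. The most negative r was that of IL11RA at -0.281 (permutation p = 0.215, rho = -0.191, permutation p = 0.403, adjusted p = 0.531).

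With the score of CCR7, LAMP3 and BATF3, the 3 dendritic cell markers that passed the count minimum, 12 of 24 genes were called, all with a positive r, against 8.1% of all genes and 5.82% with a positive r. The list named 7 markers, 5 of them in the tables, and the score therefore rests on few genes, which other activated cells can also express. IL1B had r = 0.829 (permutation p = 1e-05, rho = 0.753, permutation p = 0.00013, adjusted p = 0.00125), IL1RN had r = 0.828 (permutation p = 1e-05, rho = 0.753, permutation p = 1e-04, adjusted p = 0.00125) and IL1A had r = 0.811 (permutation p = 1e-05, rho = 0.851, permutation p = 1e-05, adjusted p = 0.00178). Leaving out the 2 cows of farthest score gave 0.711, 0.749 and 0.79, and within the 16 cows 0.824, 0.881 and 0.75. The other 9 were IL2RG, IL1R2, IL2RA, IL10RB, IL4R, IL1RAP, IL27, IL10RA and IL10, with r from 0.606 to 0.807. IL27, which activated antigen-presenting cells secrete, was called with this score alone, at r = 0.65 and an adjusted p of 0.0265. The most negative r was again that of IL11RA, at -0.381 (permutation p = 0.0872, rho = -0.401, permutation p = 0.0713, adjusted p = 0.295).

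Genes that signal downstream of these receptors were also counted with both scores. Of the 30 signalling genes, 10 were called with the neutrophil score and 13 with the CCR7, LAMP3 and BATF3 score, all with a positive r, or 33.3% and 43.3% against 6.88% and 8.1% of all genes. MYD88, the adaptor of the interleukin-1 and interleukin-18 receptors, had r = 0.873 with the neutrophil score and 0.733 with the other. The NF-kB subunits NFKB1 and NFKB2 had 0.74 and 0.756 with the neutrophil score and 0.8 and 0.826 with the other. SOCS3, the inhibitor that interleukin-6 and interleukin-10 induce, had 0.725 and 0.856. With the other scores the signalling genes were called in both directions or not at all. With the macrophage score, described next, 2 were called with a positive r, CSF1R (itself a marker of that score) among them, and 2 with a negative r, SOCS2 at -0.626 among them. With the mammary epithelial score 2 had a positive and 4 a negative r, and with the milk protein score 2 and 6. These were 13.3%, 20% and 26.7% of the signalling genes, against 14.1%, 18.7% and 21.1% of all genes. OSMR at 0.694 was the highest and TRAF3IP2 at -0.873 and STAT6 at -0.825 were the lowest with the milk protein score, and 0 were called with either lymphocyte score.

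With the macrophage score, which rested on 13 markers such as CD14, CD68, CD163 and C1QA, 3 of 24 genes were called, against 14.1% of all genes (8.38% by a positive r, 5.72% by a negative one). IL27RA rose with it, at r = 0.617 (permutation p = 0.00243, rho = 0.686, permutation p = 0.00089, adjusted p = 0.029), while IL20RB had r = -0.646 (permutation p = 0.00144, rho = -0.599, permutation p = 0.00466, adjusted p = 0.0199) and IL1R1 had r = -0.606 with an adjusted p of 0.0328. IL7R at 0.52 and IL21R at 0.486 were next in the positive direction and were not called, with adjusted p of 0.0828 and 0.114 (permutation p of r 0.0156 and 0.0257, rho 0.503 and 0.401, permutation p of rho 0.0219 and 0.0735). Without the 2 cows of farthest score, IL27RA had r = 0.604 and IL20RB -0.622, and within the 16 cows 0.622 and -0.747. Without HY cow 3280 the r of IL27RA was 0.51, and without both milk protein-rich cows it was 0.551 (adjusted p = 0.0858), and it was called in neither. The number called ran from 1, without HY cow 2814, to 4, without HY cow 3262.

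With the T cell score 1 of the 24 genes was called, IL16, against 3.34% of all genes, and its r was 0.862 (permutation p = 1e-05, rho = 0.851, permutation p = 1e-05, adjusted p = 0.000153). The score was the mean of CD3D, CD3E, CD3G, CD2, CD5, CD247, LCK and ZAP70. The r of IL16 was 0.79 without the 2 cows of farthest score, within the 16 cows it was 0.858, and leaving out each cow in turn gave 0.826 to 0.92. IL27RA and IL21R followed with r of 0.637 and 0.582 and were not called, with adjusted p of 0.0533 and 0.0929 (permutation p of r 0.00112 and 0.00508, rho 0.657 and 0.571, permutation p of rho 0.00147 and 0.00753). Leaving out 1 cow gave 1 to 3 calls, since IL27RA was also called without HY cow 3014, HY cow 3057, HY cow 3235 or LY cow 3198, and IL21R without LY cow 3198. The most negative r was that of IL11RA at -0.465 (permutation p = 0.0343, rho = -0.503, permutation p = 0.0224, adjusted p = 0.21). Of the 29 genes with a count but under the count minimum, 3 were called with this score, against 3.34% of all genes. These were IL17RB at 0.838, IL1RL1 at 0.67 and IL17F at 0.668, each with no count in some cows.

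With the score of NKG7, PRF1 and CTSW, genes of cytotoxic T and natural killer cells, 2 of 24 genes were called, against 4.35% of all genes. The list named 11 markers, all in the tables, and only these 3 passed the count minimum, so this score also rests on few genes. IL21R had r = 0.82 (permutation p = 1e-05, rho = 0.684, permutation p = 8e-04, adjusted p = 0.0117) and IL27RA had r = 0.722 (permutation p = 0.00012, rho = 0.857, permutation p = 1e-05, adjusted p = 0.0228). Without the 2 cows of farthest score these r were 0.686 and 0.663. Within the 16 cows of lower mapping rate they were 0.791 and 0.728, and refitted with all genes in those cows neither was called, with adjusted p of 0.153 and 0.207. GZMB was at 0 in all cows. Neither was called without HY cow 3280, where the r of IL27RA was 0.65, or without LY cow 7643, where the r of IL21R was 0.749, and without HY cow 3075 only IL21R was called. Without both milk protein-rich cows IL21R was called (r = 0.808, adjusted p = 0.0266) and IL27RA was not (r = 0.679, adjusted p = 0.0864). IL16 came next with r = 0.546 and was not called (permutation p = 0.0101, rho = 0.491, permutation p = 0.0249, adjusted p = 0.0945), and IL13RA1 had the most negative r, -0.332 (permutation p = 0.141, rho = -0.4, permutation p = 0.0728, adjusted p = 0.364). Of the 29 genes with a count but under the count minimum, 2 were called with this score, IL17A at 0.75 and IL17F at 0.768, against 4.35% of all genes.

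The epithelial scores went the other way. With the mammary epithelial score of 9 keratin and junction genes and their regulators, 5 of 24 genes were called, all with a negative r, against 18.7% of all genes and 9.2% with a negative r. IL7R had r = -0.733 (permutation p = 0.00016, rho = -0.782, permutation p = 9e-05, adjusted p = 0.00286), and IL10RA at -0.628, IL21R at -0.603, IL6R at -0.59 and IL4R at -0.561 followed. Without the 2 cows of farthest score the r of IL7R was -0.808, and within the 16 cows it was -0.707. Of the other genes IL11RA had the most positive r at 0.404 (permutation p = 0.0693, rho = 0.44, permutation p = 0.0475, adjusted p = 0.193), followed by IL20RB at 0.319 and IL1R1 at 0.286, and none of these was called (permutation p of r 0.158 and 0.209, rho 0.316 and 0.251, permutation p of rho 0.164 and 0.271). The count of 5 fell to 1, IL7R, without HY cow 3280 and without both milk protein-rich cows, and to 3 without HY cow 2814, HY cow 2920, HY cow 3075, HY cow 3262, LY cow 2893, LY cow 3369 or LY cow 7643. Refitted within the 16 cows of lower mapping rate it was also 1, IL7R (adjusted p = 0.0363).

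With the milk protein score, the mean of 10 casein, whey and milk fat globule genes, 8 of 24 genes were called, all with a negative r, against 21.1% of all genes and 10.8% with a negative r. All 8 encode receptor chains, as do 15 of the 24 genes. IL4R had r = -0.757 (permutation p = 7e-05, rho = -0.734, permutation p = 0.00016, adjusted p = 0.00132), and it was -0.667 without the 2 cows of farthest score and -0.728 within the 16 cows. IL10RA had -0.691, IL21R -0.677, IL7R -0.598, IL6R -0.566, IL2RA -0.562, IL27RA -0.558 and IL2RG -0.556. Next by p came the antagonist IL1RN at -0.485 and the ligands IL10 at -0.477 and IL27 at -0.457. They went the same way and were not called (adjusted p = 0.0952, 0.102 and 0.123). Without HY cow 3280, 3 were called, and the same number without both milk protein-rich cows. Refitted within the 16 cows of lower mapping rate, 2 were called, IL4R among them (adjusted p = 0.0203). Without HY cow 3075, HY cow 3262 or LY cow 7643 there were 4, and without HY cow 2814, LY cow 2893, LY cow 3272 or LY cow 3369 there were 5. The most positive r belonged to IL11RA at 0.269, IL18 at 0.244 and IL1R1 at 0.231, none of which was called (permutation p of r 0.239, 0.287 and 0.311, rho 0.278, 0.222 and 0.2, permutation p of rho 0.221, 0.332 and 0.382). IL20RA, under the count minimum, had r = 0.916 with the milk protein score and 0.855 with the mammary epithelial score, and IL33 had 0.688 and 0.579, all 4 of which were called. Of the 29 genes with a count but under the minimum, each of these scores called 2 with a positive r and 1 with a negative r. The shares of all genes were 21.1% and 18.7%. Without both milk protein-rich cows IL20RA had 0.895 and 0.808 (adjusted p = 1.4e-05 and 0.00122), while IL33 had 0.585 and 0.431 (adjusted p = 0.047 and 0.242), so that 1 of the 4 calls was lost. In the negative direction IL17F was called with the milk protein score (r = -0.601, adjusted p = 0.0244) and IL26 with the mammary epithelial score (r = -0.668, adjusted p = 0.0103). The same cows left out gave -0.523 for IL17F (adjusted p = 0.0901) and -0.654 for IL26 (adjusted p = 0.031). HY cow 3280, the highest cow for both IL20RA and IL33, had the highest mammary epithelial score.

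**Figure D4:**
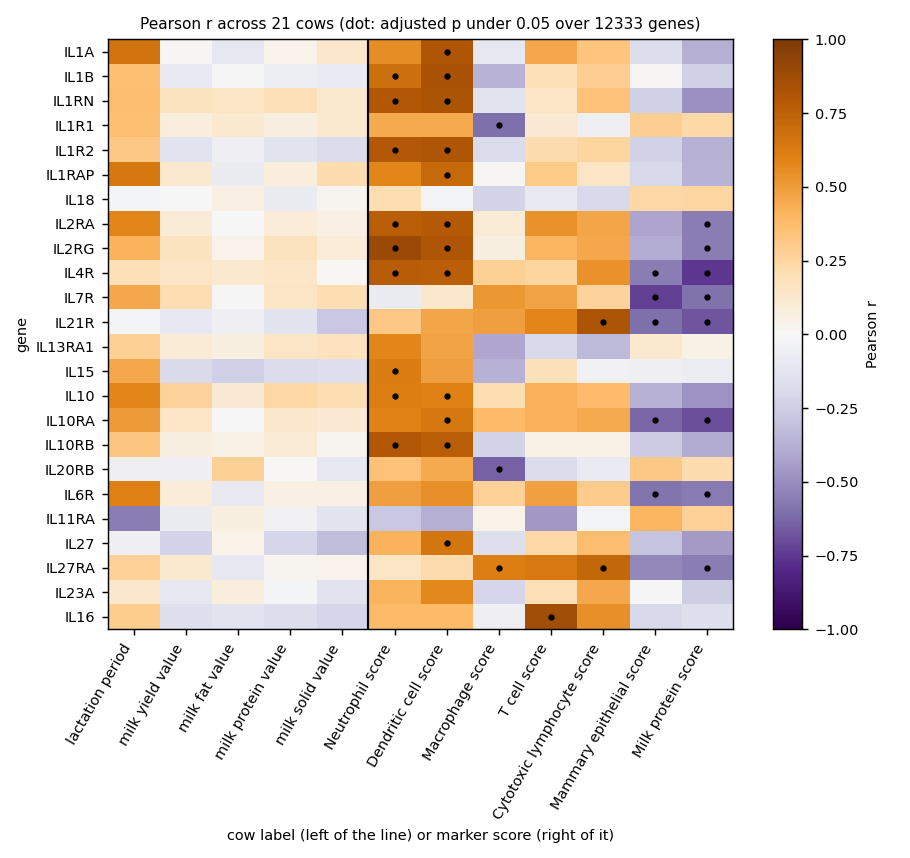
Pearson r across 21 cows of each of the 24 genes (rows) with 5 cow labels and 7 marker scores (columns), from purple (negative) to orange (positive). Dots mark an adjusted p under 0.05 over 12333 genes, and the 40 dots lie in the score columns, with none in the label columns.

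Ligands, receptor chains and antagonists that act together were paired from textbook knowledge, and 13 of 29 pairs had both genes at the count minimum. The list was not complete. For example, it left out IL27 with its receptor chain IL27RA (r = 0.177) and IL2RA with IL2RG (r = 0.916), so the number called depends on the pairs chosen. Of these, 8 were called, all with a positive r. The regressions run from the first gene to all 12333 genes, so each share of all genes called counts the first gene itself. Whether a pair is called thus also depends on its first gene. IL21R with IL2RG and IL10RA with IL10RB were called, though 8.65% and 9.41% of all genes had a higher r with the first gene. IL1R1 with IL1R2 was not, with 1.27% higher. Some genes that were not paired had r as high, such as IL10RA with IL6R at 0.905 and IL10RB with IL1R2 at 0.902. IL1B and IL1RN rose together, at r = 0.905 (permutation p = 1e-05, rho = 0.865, permutation p = 1e-05, adjusted p = 3.77e-05), while 7.02% of all genes were called with IL1B and 0.0405% had a higher r. Their counts stood in a ratio of IL1RN over IL1B from 1.82 in LY cow 7643 to 7.79 in HY cow 3064, with a median of 3.57, so IL1RN had more counts than IL1B in each of the 21 cows. IL1B also rose with IL1R2 (r = 0.823, permutation p = 1e-05, rho = 0.801, permutation p = 4e-05, adjusted p = 0.000836) and with IL1RAP (r = 0.65, permutation p = 0.0011, rho = 0.603, permutation p = 0.00438, adjusted p = 0.0286). Its r with IL1R1 was 0.599, which was not called (adjusted p = 0.054). IL1A and IL1B had r = 0.821 (permutation p = 3e-05, rho = 0.794, permutation p = 4e-05, adjusted p = 0.00395, against 6.31% of all genes called with IL1A), and r was 0.647 without the 2 farthest cows and 0.713 within the 16. Without the 2 cows of farthest IL1B, the r of IL1B was 0.879 with IL1RN, 0.795 with IL1R2, 0.592 with IL1RAP and 0.563 with IL1R1. Within the 16 cows of lower mapping rate these were 0.881, 0.848, 0.568 and 0.653, and without LY cow 7643 the r of IL1B with IL1RN was 0.885.

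IL4R and IL2RG, the 2 chains of a receptor for interleukin-4, had r = 0.902 (permutation p = 1e-05, rho = 0.89, permutation p = 1e-05, adjusted p = 1.18e-05), against 22.1% of all genes called with IL4R. It was 0.862 without the 2 farthest cows and 0.896 within the 16. IL21R and IL2RG had r = 0.579 (permutation p = 0.00635, rho = 0.56, permutation p = 0.00955, adjusted p = 0.0378, against 17.8% called with IL21R), and the call was lost in 6 of the 21 fits that left out 1 cow. IL10 and IL10RA had r = 0.761 (permutation p = 6e-05, rho = 0.784, permutation p = 4e-05, adjusted p = 0.00604, against 10.5% called with IL10), and IL10RA and IL10RB had r = 0.624 (permutation p = 0.00239, rho = 0.723, permutation p = 0.00026, adjusted p = 0.0131, against 31% called with IL10RA). The r of IL10 with IL10RA was 0.784 without the 2 farthest cows and 0.723 within the 16. The r of IL10RA with IL10RB was 0.816 and 0.565. IL7R and IL2RG, the 2 chains of the interleukin-7 receptor, had r = 0.221 and an adjusted p of 0.485, against 34.5% of all genes called with IL7R. IL4R and IL13RA1 had r = 0.314 (adjusted p = 0.348). IL1R1 was not called with IL1R2 (r = 0.562, adjusted p = 0.378) or with IL1RAP (r = 0.477, adjusted p = 0.469), and the only gene of all 12333 called with IL1R1 was IL1R1 itself, or 0.00811%.

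With the neutrophil, macrophage, T cell and mammary epithelial scores as covariates, 1 of the 8 pairs was still called, IL1B and IL1RN (partial r = 0.882, adjusted p = 0.00225). IL1A and IL1B had a partial r of 0.782 (adjusted p = 0.0731), IL4R and IL2RG 0.627 (adjusted p = 0.0734), IL1B and IL1R2 0.608, IL10RA and IL10RB 0.483, IL1B and IL1RAP 0.475, IL10 and IL10RA 0.447 and IL21R and IL2RG 0.278. This fit has fewer degrees of freedom than the first. Without HY cow 3280, 5 pairs were called. Without both milk protein-rich cows, IL10 with IL10RA (r = 0.646, adjusted p = 0.126), IL10RA with IL10RB (r = 0.522, adjusted p = 0.0955) and IL21R with IL2RG (r = 0.48, adjusted p = 0.147) were no longer called, while IL1B with IL1R1 (r = 0.69, adjusted p = 0.0212) and IL1R1 with IL1R2 (r = 0.796, adjusted p = 0.0221) were. Within the 16 cows of lower mapping rate 3 pairs were called, IL1B with IL1RN, IL1B with IL1R2 and IL4R with IL2RG.

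**Figure D5:**
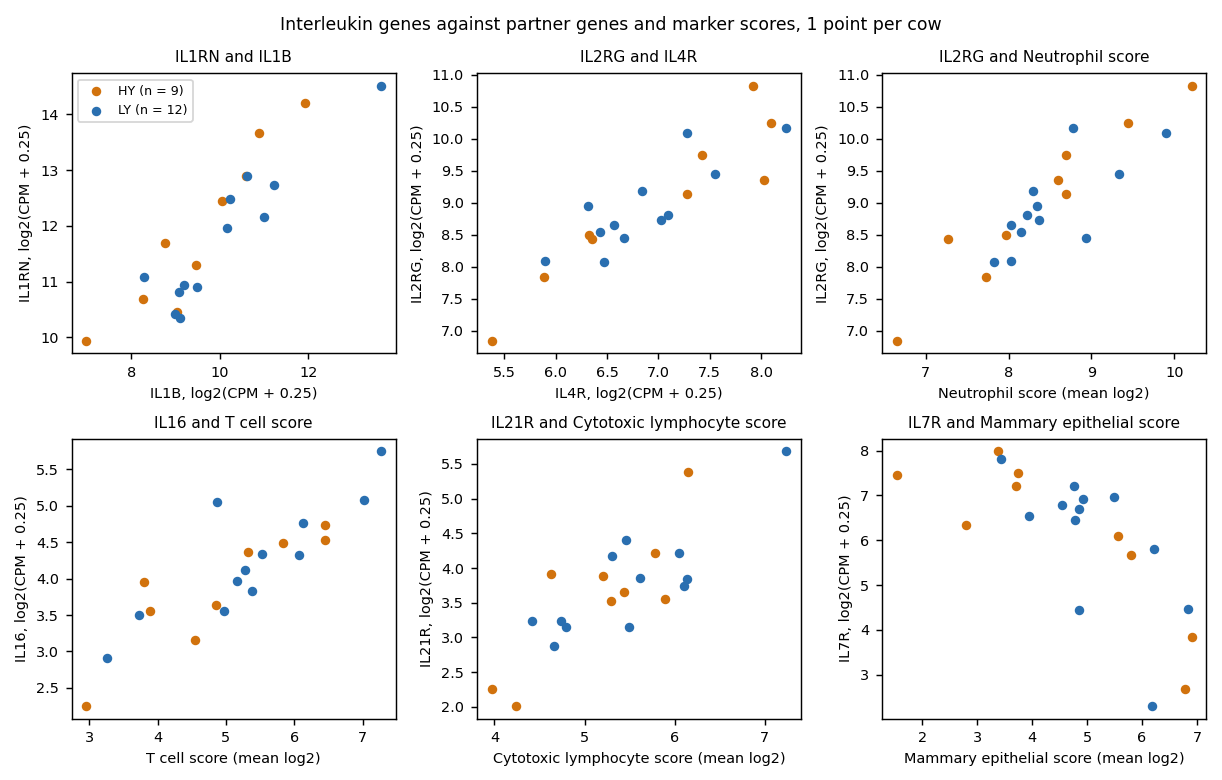
log2(CPM + 0.25) of interleukin genes against a partner gene or a marker score, 1 point per cow (orange HY, n = 9, blue LY, n = 12). IL1RN rises with IL1B (r = 0.905), IL2RG with IL4R (0.902) and with the neutrophil score (0.889), IL16 with the T cell score (0.862) and IL21R with the cytotoxic lymphocyte score (0.82), and IL7R falls with the mammary epithelial score (-0.733). HY and LY points overlap. In the panel of IL1RN and IL1B, 8 of 9 HY cows had a ratio of IL1RN over IL1B above the LY median. There 1 of 12 LY cows was above the HY median.

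In the RefSeq annotation of the ARS-UCD2.0 assembly, which is not the build of these counts, IL4R and IL21R are direct neighbours among protein-coding genes, as are IL1R2 and IL1R1, and IL1A and IL1B lie with 1 gene between them. IL10RA, IL1RAP, IL23A, IL27 and IL27RA overlap another protein-coding gene there, so their counts are uncertain in so far as the counting could split reads between the genes.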

How the data were processed

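Total RNA of milk somatic cells was sequenced on an Illumina HiSeq by the authors, 1 library per cow. Per the study's methods, reads were trimmed with Trimmomatic, mapped to bosTau7 with Bowtie2 within TopHat2, and counted on genes with HTSeq. Versions and the strand setting are not given in the sources used here. The deposited files hold raw counts per gene and cow. A row with no gene name took 0.036% to 0.151% of the reads listed and was left out, and 23 rows whose symbol had become a calendar date were kept without a name.

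Counts were scaled with TMM factors (edgeR 4.0.16, R 4.3.3). HY and LY were compared with edgeR's quasi-likelihood test, with DESeq2 1.42.0 as an alternative. Labels, marker scores and pairs were fitted by linear regression on log2(CPM + 0.25), a scale that understates changes of low genes. The test covered every gene counted in some cow, 12333 in all, with Benjamini-Hochberg adjustment over all of them and calls under 0.05. Pearson r and Spearman rho have 2-sided permutation p from 100000 permutations, and 288 relations of the 24 genes were computed with 12 labels and scores. Low counts limit precision most for genes such as IL15 and IL23A, whose lowest library held 12 counts. The named genes were those with at least 10 counts in every cow. Given in full are the 3 lowest p of each label, the 3 largest positive and the most negative r of each score, and the called pairs. Genes and lists were chosen with earlier results of these data known, and none is independent evidence. The scripts were tested on simulated data. The study's mapping table separates 16 cows of lower mapping rate from 5 of higher rate, 1 HY and 4 LY, and relations were recomputed within the 16. Other alternatives were the size factors of DESeq2, library sizes without milk protein genes, another pseudocount, a count filter, rank correlation, covariates, z-scored markers, and leaving out the 5 deepest libraries, the 2 milk protein-rich cows or each cow in turn. No gene sequences or transcript lengths were used.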

Additional observations from a re-analysis of the deposited data

How the results depend on the processing

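The threshold here was a p of 0.05, adjusted for scores and pairs but unadjusted for single genes with HY against LY and the labels. Over all alternatives other than leaving out 1 cow, 608 of 672 values of single genes, pairs and scores kept their direction and their side of it. Of the others, 33 no longer passed it, 9 newly passed it, 15 counts moved by over 1.5 times and 7 turned in sign. Among the 9 were IL10 with milk yield and with milk protein, which passed by unadjusted p only. No cause was tested. The log2 fold change of IL1A in HY over LY turned to 0.636 without the 5 deepest libraries, 0.314 with DESeq2 and 0.319 in the 16 cows of lower mapping rate, and ranged from -1.44 to 0.334 when each cow was left out. IL1RAP with milk solid turned with parity and lactation period as covariates (p = 0.914), IL1RN with milk fat in the 16 cows (p = 0.875), IL4R with IL13RA1 under 4 marker scores as covariates (-0.0656), and IL11RA with the milk protein score without the 2 milk protein-rich cows (-0.0315). The relations called with scores numbered 25 without the 5 deepest libraries, 24 in the 16 cows, 26 without the 2 milk protein-rich cows and 24 to 38 without 1 cow, the lowest without HY cow 3280, against 40. The pairs called numbered 4, 3 and 5 to 9 in the first, second and last of these, and 1 with the scores as covariates, against 8. Genes at an unadjusted p under 0.05 for lactation period numbered 5 without the 5 deepest libraries and 7 to 12 without 1 cow, against 9. For milk yield, protein and solid they numbered 1 each, IL2RG, with the scores as covariates (p = 0.0374, 0.0161 and 0.0237) and 1 each, IL10, without the 2 milk protein-rich cows, against 0. Smaller sets of cows also carry less power. Scaling by TMM, by the size factors of DESeq2 or without milk protein genes left the median log2 difference between HY and LY over all genes at 0.03 to 0.05. No paired analysis was possible because the labels give each cow her own number and HY and LY share none.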

Other observations

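The ratio of IL1RN to IL1B counts, in which library size cancels, was looked at after its values had been seen. Its range was 2.67 to 7.79 in HY (median 5.22) and 1.82 to 6.9 in LY (median 3.09). Of the 9 HY cows, 8 were above the LY median, and 1 of the 12 LY cows was above the HY median. The log2 ratio averaged 2.36 ± 0.505 in the 9 HY cows and 1.68 ± 0.542 in the 12 LY cows (SD), a difference of 0.68 (2-sided exact permutation test over 293930 choices of 9 cows, p = 0.00984). Among the ratios of all 13 pairs tested it had the lowest p, and adjusted over these 13 it was 0.128, so it did not pass. Leaving out 1 cow gave p from 0.00223 to 0.0214, and within the 16 cows of lower mapping rate p was 0.0382. Against the breeding value for milk yield, which sets the groups and is thus no separate test, the log2 ratio had r = 0.561 and rho = 0.565. Without the 2 cows farthest in yield r was 0.505, and within the 16 cows 0.552. With milk protein r was 0.545, with milk solid 0.446, with milk fat 0.358 and with lactation period -0.0717. The means of log2(CPM + 0.25) were 11.92 in HY and 11.77 in LY for IL1RN, and 9.555 and 10.08 for IL1B, and neither gene was called alone. The log2 fold change of HY over LY was -0.798 for IL1B and 0.226 for IL1RN. Without LY cow 7643 these were 0.208 and 0.82, and the difference of the log2 ratio was 0.605. How the difference divides between the 2 genes thus rests on that cow.

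Of the 29 genes with a count but under the count minimum, 3 were called with the CCR7, LAMP3 and BATF3 score, against 8.1% of all genes. These were IL12B at r = 0.797 (adjusted p = 0.00239), IL23R at 0.611 and IL1F10 at 0.606. IL1F10 had no count in 6 cows and reached 10 counts in 5. For lactation period 4 of the 29 genes with a count but under the minimum, or 13.8%, were at an unadjusted p under 0.05, against 20.3% of all genes, and 0 were called after adjustment. The lowest p was that of IL12RB2: this chain of the interleukin-12 receptor had r = 0.581 with lactation period (p = 0.00574, adjusted p = 0.129).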
